A study of Mus musculus with 8 samples.

Results

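The 8 cathepsins Ctsa, Ctsb, Ctsc, Ctsd, Ctsh, Ctsl, Ctss and Ctsz and the 2 cystatins Cst3 and Cstb were examined in sorted mouse blood monocytes (MCs). They were chosen by name as lysosomal proteases and their inhibitors, and all 10 had a value among the 16486 genes of the deposited table. The study compared Ly6C-high with Ly6C-low MCs, and diabetic with control (CT) mice, by bulk RNA-Seq. 8 libraries were analysed here, of which CT mice gave 2 for each subset and T1DM and T2DM mice 1 for each subset. CT mice were C57/BL6 mice on normal chow. T1DM mice were C57/BL6 mice that received streptozotocin (STZ), which kills pancreatic beta cells, by 5 daily i.p. injections of 50 mg/kg when 8 weeks old. For T2DM the study used db/db mice, homozygous for a mutation of the leptin receptor, which become obese. Blood of all mice was taken between 20 and 22 weeks of age, and CD11b+ cells without Ly6G were sorted by high or low Ly6C. RNA of 5 mice was pooled for a library. Since pools were run in duplicate, the p-values measure a spread between libraries that may be technical.

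Cathepsins are the main proteases of the lysosome, where they cut proteins that were taken up or are to be recycled. Most are cysteine proteases of the papain family, while cathepsin D is an aspartic protease and cathepsin A a serine carboxypeptidase. In antigen-presenting cells, cathepsins S and L cut the invariant chain from MHC-II, and cathepsin C activates the serine proteases of granules. Cystatins bind papain-like cathepsins and block them, cystatin C (Cst3) after secretion and cystatin B (Cstb) inside the cell.

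Values are the deposited log2 expression values. The study states a read total per sample, but the number of reads behind each gene's value is unknown. The study's methods name TPM, a unit per transcript length, but the sources used here do not say how the deposited log2 values were made from it. Levels are therefore not compared between genes. The sort marker Ly6c2 lay between 8.56 and 8.72 in Ly6C-high and between 2.69 and 4.07 in Ly6C-low MCs. The summed log2 level of 8 markers of classical MCs was 13.46 to 14.78 in Ly6C-high and 10.15 to 10.55 in Ly6C-low MCs. That of 8 nonclassical markers differed less, with 10.12 to 11.18 and 11.34 to 11.84. In CT mice it was 11.18 in both Ly6C-high libraries and 11.41 and 11.43 in the Ly6C-low ones. The CT libraries were run on a NextSeq 500 and the diabetic libraries on a HiSeq 4000, so the effects of sequencer and diabetes cannot be told apart. Ddx3y, a gene of the Y chromosome, lay between 2.41 and 3.64 in CT and between 5.40 and 6.30 in diabetic libraries, and Eif2s3y between 2.39 and 4.31 and between 5.55 and 6.32. The study describes its mice as male and the labels used here give no sex, and the part of this difference in comparisons of diabetic with CT mice was not tested. The db/db genotype was not checked, since the level of the leptin receptor mRNA does not show the mutation.

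Most of these genes were higher in Ly6C-high than in Ly6C-low MCs. In 9 of 10 genes every Ly6C-high library lay above every Ly6C-low library, an order that 16.4% of all genes showed. In CT MCs, Ctsa, Ctsc and Ctss were called higher, 3 of 10 beside 2.1% of all genes. A gene was called in limma at a Benjamini-Hochberg adjusted p under 0.01 over all 16486 genes and an absolute log2FC over 1. With all 8 libraries and the mouse group as covariate, Ctsl, Cstb, Ctsc, Ctsa and Ctss were called higher, 5 of 10 beside 5.37% of all genes. Without the fold limit 5 genes passed in CT MCs (2.93% of all genes were higher at this limit) and 9 over the 8 libraries (11.4%). The median log2FC of the 10 genes was 1.07 in CT MCs and 1.06 over the 8 libraries, where the medians of all genes were -0.09 and -0.08. In a bulk library, fewer cells of a type and less RNA per cell cannot be told apart.

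**Figure D1:**
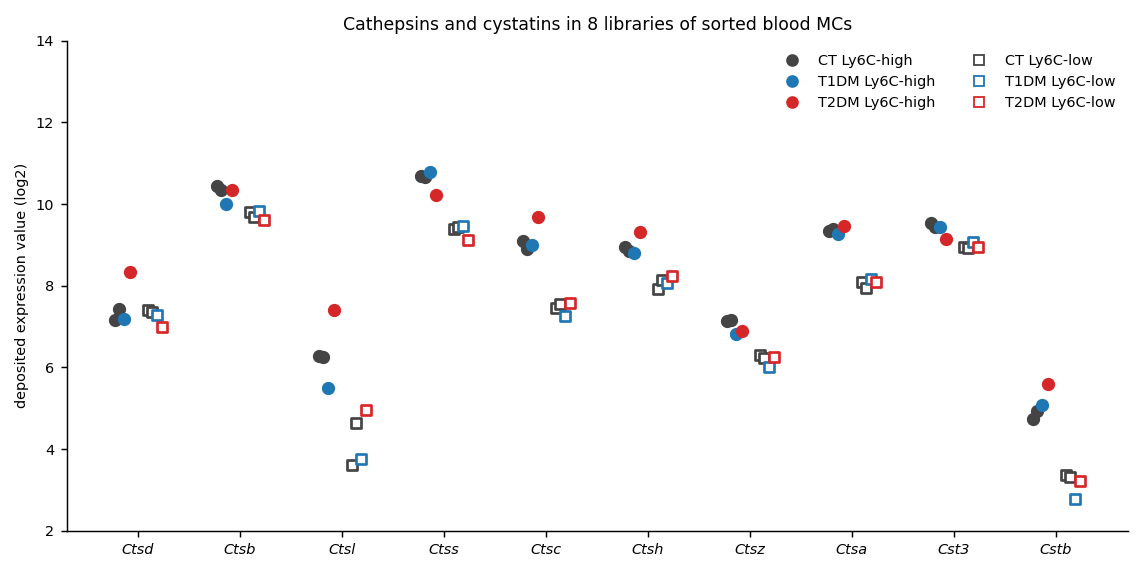
Deposited log2 expression value of each cathepsin and cystatin in the 8 libraries, with circles for Ly6C-high and open squares for Ly6C-low MCs, coloured by mouse group. Circles lie above squares for 9 genes, while those of Ctsd overlap, and the T2DM circle stands at 8.33 for Ctsd and at 7.41 for Ctsl.

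Sequences before the gene start are shown for genes that were higher together in Ly6C-high MCs, and for Ctsd, which was not. RefSeq start sites of GRCm38.p6 were found for 7 of the 10 genes in 8 windows, and Ctsb, Ctsh and Cstb were not among them. The 250 bases before each start were searched on both strands. CACGTG, the core bound by the MiT/TFE factors that control lysosomal genes, was in the windows of Ctsa, Ctsd and Ctsl, 3 of 7 genes, and in 6.02% of all 32851 windows. The longer TCACGTGA, which contains CACGTG, was in those of Ctsa and Ctsd and in 0.785% of all. Each site is printed 5′ to 3′ on the gene's strand with CACGTG in capitals, and GENCODE places exon bases in all of these windows.
Ctsa, chr2:164833743-164833772 (+): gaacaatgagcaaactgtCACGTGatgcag
Ctsd, chr7:142388048-142388077 (-): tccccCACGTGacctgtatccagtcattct
Ctsd, chr7:142387908-142387937 (-): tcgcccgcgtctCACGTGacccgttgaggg
Ctsl, chr13:64370739-64370768 (-): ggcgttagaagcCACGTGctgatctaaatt
The capitals of Ctsa end 7 bases before the second of its RefSeq starts, those of Ctsd 240 and 93 bases and those of Ctsl 231 bases before the start. The letters therefore stood both at genes with a difference between the subsets and at Ctsd, whose log2FC in CT MCs was -0.08.

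The windows of Ctss and Ctsc held no annotated exon and are printed whole, since they differ in the motifs found. Ctss had 2 copies of GAAA on 1 strand with 2 bases between them, the repeat bound by interferon regulatory factors. It was in 2.98% of all windows and is in capitals, with the bases between.
Ctss, chr3:95526536-95526785 (+): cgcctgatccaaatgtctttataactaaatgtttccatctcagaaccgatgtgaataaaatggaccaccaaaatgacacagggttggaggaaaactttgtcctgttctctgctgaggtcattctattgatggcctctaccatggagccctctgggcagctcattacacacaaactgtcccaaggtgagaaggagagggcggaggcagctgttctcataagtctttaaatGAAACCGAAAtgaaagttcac
Ctsc had GAGGAAGT, a form of the site of PU.1 and related ETS factors, in 2.44% of all windows. It lies on the other strand, so the capitals show its reverse complement.
Ctsc, chr7:88277835-88278084 (+): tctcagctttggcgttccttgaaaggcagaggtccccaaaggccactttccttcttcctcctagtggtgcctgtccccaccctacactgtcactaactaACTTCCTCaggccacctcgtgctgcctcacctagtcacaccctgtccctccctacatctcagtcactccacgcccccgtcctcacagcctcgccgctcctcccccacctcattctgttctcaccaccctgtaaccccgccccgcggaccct
The shorter GAGGAA, part of GAGGAAGT, was in the windows of Ctsc, Ctss and Cst3 and in 23.3% of all. TTGCNNAA (N is any base), a form of the C/EBP site, was in that of Ctsl (9.56% of all), TATAAA in that of Ctss (12.4%), CCAAT in that of Ctsz (33.8%) and GGGCGG in those of Ctsc, Ctsd, Ctss, Ctsz and Cst3 (32.7%). TCANGTGAC, which overlaps TCACGTGA, was in those of Ctsa and Ctsd (1.48%), and CACATG, TTGCGCAA and TGACGTCA were in none of the 7 genes' windows (12.3%, 0.164% and 1.55% of all). A match is a run of letters in a window, and binding was not measured.

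Among the endopeptidases of the papain family, Ctsl had the largest log2FC over the 8 libraries of the 10 genes. Cathepsin L (Ctsl, chr13:64359337-64370890) cuts the invariant chain and degrades proteins inside lysosomes. Its value was 6.28 and 6.25 in the CT, 5.50 in the T1DM and 7.41 in the T2DM library of Ly6C-high MCs. In Ly6C-low MCs it was 3.60 and 4.64 in the CT, 3.76 in the T1DM and 4.96 in the T2DM library. The Ly6C-high libraries were all above the Ly6C-low ones, but values spread widely within both subsets. In CT MCs the log2FC of 2.14 (SE 0.4) had a limma adjusted p of 0.0426 and was not called. Over the 8 libraries Ctsl rose by 2.12 (SE 0.224, limma adjusted p = 0.000154). Of its 31-base sequences, 28.2% are shared with other transcripts, mostly those of the antisense gene Gm47123, so its reads could have been divided.

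Cathepsin S (Ctss, chr3:95526786-95556403) removes the last part of the invariant chain from MHC-II. Its value was 10.69 and 10.67 in the CT, 10.79 in the T1DM and 10.22 in the T2DM library of Ly6C-high MCs. It was 9.39 and 9.44 in the CT, 9.47 in the T1DM and 9.11 in the T2DM library of Ly6C-low MCs. The subsets were well apart, and the T2DM library was the lowest of each subset. Ctss rose in Ly6C-high MCs by 1.26 in CT mice (SE 0.0301, limma adjusted p = 0.00229) and by 1.24 over the 8 libraries (SE 0.0669, limma adjusted p = 4.49e-06).

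Cathepsin B (Ctsb, chr14:63122462-63145923) acts both inside proteins and on their ends. It had 10.45 and 10.35 in the CT, 10.01 in the T1DM and 10.34 in the T2DM library of Ly6C-high MCs, against 9.81 and 9.68 in the CT, 9.84 in the T1DM and 9.61 in the T2DM library of Ly6C-low MCs. The lowest Ly6C-high library, that of T1DM, was only 0.17 above the highest Ly6C-low library. The log2FC was 0.65 in CT MCs (SE 0.0677, limma adjusted p = 0.0147) and 0.55 over the 8 libraries (SE 0.101, limma adjusted p = 0.00315), less than 2-fold. With quantile normalization the latter was 0.14 (limma adjusted p = 0.262). Of its 31-base sequences 13% are shared, mostly with Fdft1 on the other strand.

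Of the exopeptidases, which cut residues from the ends of proteins, Ctsc was called in both tests. Cathepsin C (Ctsc, chr7:88278085-88310888) had 9.10 and 8.90 in the CT, 9.0 in the T1DM and 9.69 in the T2DM library of Ly6C-high MCs. It had 7.46 and 7.55 in the CT, 7.26 in the T1DM and 7.58 in the T2DM library of Ly6C-low MCs. The lowest Ly6C-high library was 1.32 above the highest Ly6C-low one, and T2DM Ly6C-high MCs stood highest. Ctsc rose by 1.49 in CT MCs (SE 0.0905, limma adjusted p = 0.00672) and by 1.71 over the 8 libraries (SE 0.116, limma adjusted p = 1.37e-05).

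Cathepsin H (Ctsh, chr9:90054152-90076089), an aminopeptidase, had 8.95 and 8.86 in the CT, 8.81 in the T1DM and 9.32 in the T2DM library of Ly6C-high MCs. Its Ly6C-low values were 7.93 and 8.15 in the CT, 8.07 in the T1DM and 8.24 in the T2DM library. No library of one subset reached the other, and the log2FC over the 8 libraries was 0.88 (SE 0.0875, limma adjusted p = 0.000103), under the fold limit. In CT MCs it was 0.86 (SE 0.0925, limma adjusted p = 0.0155).

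Cathepsin Z (Ctsz, chr2:174427493-174439039), a carboxypeptidase, had 7.13 and 7.17 in the CT, 6.83 in the T1DM and 6.90 in the T2DM library of Ly6C-high MCs. The Ly6C-low libraries had 6.31 and 6.24 in the CT, 6.01 in the T1DM and 6.25 in the T2DM library. The subsets did not overlap, and both diabetic Ly6C-high libraries were below both CT ones. The log2FC of 0.88 in CT MCs (SE 0.068, limma adjusted p = 0.00915) and of 0.80 over the 8 libraries (SE 0.0916, limma adjusted p = 0.000232) passed the p limit but not the fold limit.

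Cathepsin A (Ctsa, chr2:164832873-164841032) is a carboxypeptidase that also keeps the lysosomal enzymes beta-galactosidase and neuraminidase stable. Its values were 9.33 and 9.40 in the CT, 9.26 in the T1DM and 9.46 in the T2DM library of Ly6C-high MCs, and 8.10 and 7.94 in the CT, 8.17 in the T1DM and 8.10 in the T2DM library of Ly6C-low MCs. Within a subset they differed by at most 0.20 and 0.23, and the subsets were 1.08 apart at their nearest libraries. Ctsa rose by 1.34 in CT MCs (SE 0.0736, limma adjusted p = 0.00591) and by 1.28 over the 8 libraries (SE 0.0826, limma adjusted p = 1.05e-05). Of its 31-base sequences 14.6% are shared, mostly with Pltp and Neurl2 on the other strand.

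Cathepsin D (Ctsd, chr7:142375911-142388038), the aspartic protease of the list, was the gene whose subsets overlapped. Its value was 7.17 and 7.44 in the CT, 7.18 in the T1DM and 8.33 in the T2DM library of Ly6C-high MCs. In Ly6C-low MCs it was 7.40 and 7.36 in the CT, 7.29 in the T1DM and 6.98 in the T2DM library. The T2DM libraries were the highest of the Ly6C-high and the lowest of the Ly6C-low libraries, and the other 6 lay within 0.27 of each other. In CT MCs the log2FC was -0.08 (SE 0.112, 95% confidence interval -0.40 to 0.25, limma adjusted p = 0.654), and over the 8 libraries it was 0.27 (SE 0.229, limma adjusted p = 0.405). The latter was -0.03 with each library scaled to the same total and -0.09 without the T2DM libraries.

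For Ctsd the assignment of reads is uncertain, because 33.2% of its 31-base sequences are shared with Gm49369, an overlapping gene on the same strand. Gm49369 had 5.64 and 5.35 in the CT, 4.58 in the T1DM and 6.15 in the T2DM library of Ly6C-high MCs, and 5.16 and 5.00 in the CT, 5.56 in the T1DM and 5.19 in the T2DM library of Ly6C-low MCs. It too was highest in T2DM Ly6C-high MCs, and how reads were divided between these genes was not tested.

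The inhibitors differed in size of effect. Cystatin B (Cstb, chr10:78425669-78427622) had 4.73 and 4.93 in the CT, 5.09 in the T1DM and 5.59 in the T2DM library of Ly6C-high MCs. In Ly6C-low MCs it had 3.37 and 3.31 in the CT, 2.78 in the T1DM and 3.22 in the T2DM library. Both diabetic libraries were above the CT libraries in Ly6C-high and below them in Ly6C-low MCs. Cstb rose by 1.92 over the 8 libraries (SE 0.208, limma adjusted p = 0.000178), while in CT MCs the log2FC of 1.49 (SE 0.152) was not called, at a limma adjusted p of 0.0143.

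Cystatin C (Cst3, chr2:148871722-148875692) had 9.53 and 9.45 in the CT, 9.45 in the T1DM and 9.14 in the T2DM library of Ly6C-high MCs. Its Ly6C-low values were 8.96 and 8.93 in the CT, 9.06 in the T1DM and 8.94 in the T2DM library. The T2DM Ly6C-high library came within 0.07 of the highest Ly6C-low library. The log2FC was 0.54 in CT MCs (SE 0.0436, limma adjusted p = 0.00973) and 0.42 over the 8 libraries (SE 0.0812, limma adjusted p = 0.00429), under the fold limit, and 0.03 over the 8 libraries with quantile normalization (limma adjusted p = 0.815).

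**Figure D2:**
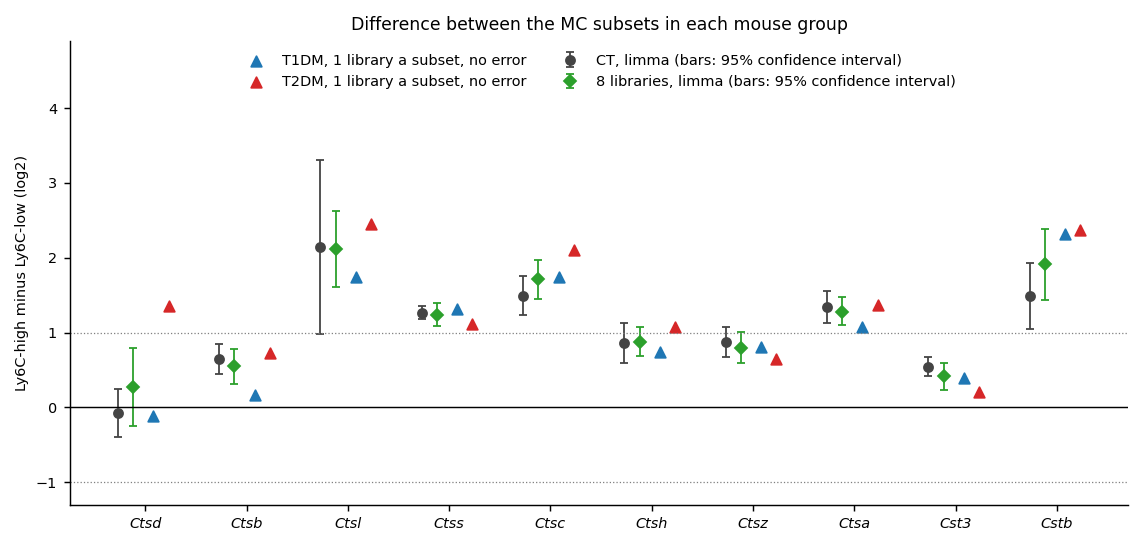
Ly6C-high minus Ly6C-low on the log2 scale for each gene, as the limma estimate with its 95% confidence interval in CT MCs (circles) and over the 8 libraries (diamonds), and as the difference of single libraries in T1DM and T2DM mice (triangles, no error). Dotted lines mark 2-fold, and for Ctsd the T2DM triangle is at 1.35 while the CT and T1DM values are at -0.08 and -0.11.

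The scaling between libraries changed these differences. The median of all genes for Ly6C-high minus Ly6C-low was -0.0817 in the deposited values, 0.0379 after quantile normalization and -0.381 with each library scaled to the same linear total. Over the 8 libraries all 10 genes were above 0 in the deposited values, with quantile normalization and with median centring, and 9 with the same total, where Ctsd was below. Relative to the median of all genes, Ctsl was 2.20 higher in the deposited values and 2.01 with quantile normalization. For Ctsc these values were 1.79 and 1.36, and for Cstb 2.00 and 1.93. The same total moves all genes of a library alike and so cannot change values relative to the median. The log2FC with it were 1.82 for Ctsl, 1.41 for Ctsc and 1.62 for Cstb. Ctsa and Ctss were 1.36 and 1.32 above the median in the deposited values and 0.92 and 0.84 with quantile normalization. Their log2FC fell under the fold limit there, and also with the same total, at 0.98 and 0.94. In both settings Ctsl, Ctsc and Cstb stayed called. In CT MCs 0 of 10 genes were called without any one of the 4 libraries, where fewer libraries were left to estimate the spread. The log2FC then stayed between 1.26 and 1.42 for Ctsa, between 1.39 and 1.60 for Ctsc and between 1.24 and 1.29 for Ctss, at limma adjusted p-values of 0.0633 to 0.0994.

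Markers of other leukocytes differed between the sorted subsets. All 12 B cell markers were called lower in Ly6C-high MCs over the 8 libraries, and their summed log2 level was 8.29 to 9.41 in Ly6C-high and 12.40 to 12.64 in Ly6C-low libraries. The 10 NK cell markers, 9 of them called lower, summed to 5.32 to 7.31 and 7.83 to 10.31. Of 12 T cell markers 2 were called lower, Cd2 and Lck. The sums were 5.02 to 5.80 in Ly6C-high and 7.78 to 8.03 in Ly6C-low MCs. Only in Ly6C-low MCs did the sum rest mostly on Cd2. Its value was 2.73 to 3.95 in Ly6C-high and 7.25 to 7.52 in Ly6C-low MCs. The T cell receptor genes Cd3d, Cd3e and Trac had log2FC of -0.12, -0.45 and -0.15, and Cd3g had -2.1. None of these was called, but 0 of the 12 markers were above 0, with a median of -0.90. The defining B cell marker Ms4a1 had 2.66 to 3.82 in Ly6C-high libraries, and Vpreb3 had -2.56 to -0.87. The neutrophil list (10 genes, 2 called higher) summed to 9.21 to 11.04 in Ly6C-high and 7.31 to 8.36 in Ly6C-low MCs. Csf3r and Mmp8 were the called ones and made up most of these sums. Of the 10 genes 7 had a log2FC above 0, and the median was 0.88. Among those not called, Lcn2 had 2.04, Ngp 1.2, S100a8 1.1, Mmp9 0.65 and S100a9 0.4. Cxcr2 had a log2FC of -1.49, Retnlg of -0.28 and Ltf of -0.26, and Ly6g and Camp were not analysed here. Of genes common to all MCs and on no lysosomal list, Csf1r, Itgam, Cx3cr1 and Adgre1 had log2FC of 0.59 to 1.03 over the 8 libraries with a median of 0.66. The part of these cells in the differences of cathepsins and cystatins was not tested.

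In T1DM mice, Ly6C-high minus Ly6C-low could be given for 1 library of each subset, without a test. 5 of 10 genes were past 2-fold, all higher in Ly6C-high MCs, beside 11% of all genes. They were Cstb (log2 difference 2.32), Ctsc (1.74), Ctsl (1.74), Ctss (1.32) and Ctsa (1.08). In T2DM mice 7 of 10 were past 2-fold and higher, beside 11.3% of all genes, and 4 of 10 with quantile normalization or the same linear total. These were Ctsl (2.45), Cstb (2.37), Ctsc (2.11), Ctsa (1.37), Ctsd (1.35), Ctss (1.12) and Ctsh (1.07). Ctsd and Ctsh were past 2-fold in T2DM and not in T1DM mice, where they had -0.11 and 0.74, and that difference was not tested.

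Whether diabetes altered these genes was asked next, with the T1DM and T2DM libraries as 1 group. In limma, 0 of 10 genes and 0% of all genes were called in Ly6C-high MCs, in Ly6C-low MCs, or for the difference between the subsets. At an unadjusted p under 0.05 there were 739, 489 and 1084 genes in all, and none of the 10. With both models in 1 group, a difference between T1DM and T2DM counts as spread in this test. For Ctsl in Ly6C-high MCs the log2 difference from the CT mean was -0.76 in T1DM and 1.14 in T2DM. A lack of calls therefore does not show that neither model differed from CT. The estimates were imprecise, as for Ctsl in Ly6C-high MCs, where the log2FC of 0.19 had a 95% confidence interval of -1.34 to 1.72 (limma adjusted p = 0.999). For Ctsd it was 0.45 (-0.33 to 1.22) and for Ctsa -0.01 (-0.29 to 0.27). The lowest p was that of Cstb, whose difference between the subsets was 0.86 larger in diabetic than in CT mice (SE 0.377, interval -0.02 to 1.74, limma adjusted p = 0.762).

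In Ly6C-high MCs the T1DM and T2DM libraries lay on different sides of both CT libraries for Ctsl, Ctss, Ctsa and Ctsh. Only for Ctsl and Ctss did each lie farther off than the CT libraries differed. Of all genes, 20.3% lay that far above and 19.4% that far below in T1DM, and 22.8% and 22.5% in T2DM. The share with T1DM and T2DM on opposite sides was not counted. Both models were set against the same CT libraries, so their values are not independent. In T1DM Ly6C-high MCs 0 of 10 genes were past 2-fold from the CT mean, beside 10.1% of all genes in either direction. Ctsl was 0.76 lower on the log2 scale than the CT mean in this library, Ctsb 0.39 and Ctsz 0.33. Each lay below both CT libraries by more than these differed. The median of the 10 genes was -0.10.

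In T2DM Ly6C-high MCs 2 of 10 genes were past 2-fold, both higher, beside 5.96% of all genes. They were Ctsl, with a log2 difference of 1.14 from the CT mean, and Ctsd, with 1.02. Cstb was 0.76, Ctsc 0.69 and Ctsh 0.41 above the CT mean. Ctss had -0.45, Cst3 -0.35 and Ctsz -0.25. So 5 genes lay above and 3 below both CT libraries by more than these differed, where 22.8% and 22.5% of all genes did. Ctsd was past 2-fold in the deposited values and not with quantile normalization, median centring or the same total, where Ctsl alone remained past it.

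Most neutrophil markers, though not all, were highest among Ly6C-high libraries in T2DM. Their summed log2 level was the highest there, at 11.04 against 9.21 to 9.33 in the other Ly6C-high libraries. Mmp8 had 9.70 against 6.99 to 7.28, Lcn2 8.71 against 1.90 to 3.17 and S100a8 6.90 against 1.14 to 2.49. S100a9 had 5.52 against 0.62 to 3.55 and Mmp9 3.41 against 0.48 to 2.41. Ngp had 3.07 against 1.53 to 2.89 and Csf3r 9.36 against 8.66 to 8.84. Retnlg was lowest in T2DM, at -1.55 against 1.46 to 3.87, and Cxcr2 too, at 2.79 against 2.81 to 3.07. Ltf, at 0.42, was below the 2.71 of T1DM but above the -2.04 and -0.55 of CT. The B cell list was lowest in the T2DM Ly6C-high library, at 8.29. Classical MC markers summed highest there, at 14.78 against 13.46 to 13.74, though Ly6c2, at 8.58, was not highest. Nonclassical markers summed lowest, at 10.12 against 10.68 to 11.18. Whether the cells of these lists had a part in the T2DM values was not tested.

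**Figure D3:**
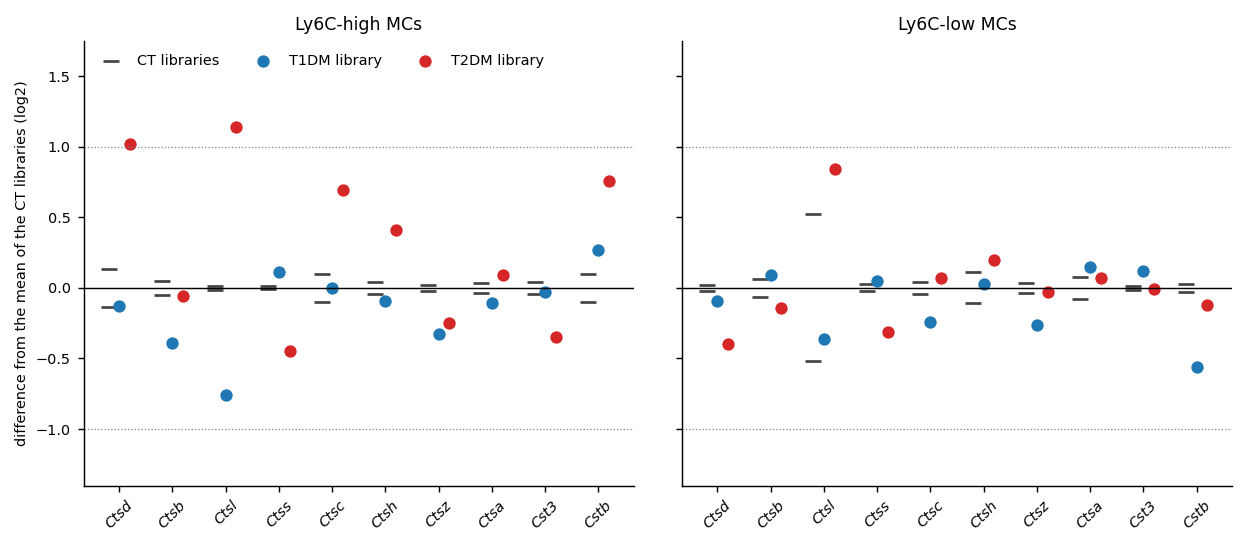
Difference of each diabetic library from the mean of the CT libraries of its subset on the log2 scale, with the CT libraries as dashes. In Ly6C-high MCs Ctsl is at -0.76 in T1DM and 1.14 in T2DM, and in Ly6C-low MCs the CT dashes of Ctsl are 1.04 apart.

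In Ly6C-low MCs 0 of 10 genes were past 2-fold in T1DM (8.81% of all genes in either direction) and 0 of 10 in T2DM (10.8%). The farthest value in T1DM was that of Cstb, with -0.56, followed by Ctsl with -0.36, which lay between the CT libraries. In T2DM Ctsl had 0.84, less than the 1.04 by which its CT libraries differed, Ctsd had -0.40 and Ctss -0.31. Without the second CT library, which held the higher value, the T2DM difference of Ctsl was past 2-fold.

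T2DM and T1DM libraries were run on 1 sequencer and could be set against each other. In Ly6C-high MCs Ctsl was 1.90 and Ctsd 1.15 higher on the log2 scale in T2DM, 2 of 10 genes past 2-fold beside 8.46% of all genes higher. Ctsc was 0.69, Ctsh 0.50 and Cstb 0.50 higher, and Ctss had -0.56. In Ly6C-low MCs Ctsl was 1.20 higher, 1 of 10 beside 7.29% of all genes, and the other 9 were within 2-fold. Ctsl was thus the gene of the list past 2-fold between the models in both subsets. In Ly6C-low MCs, however, its CT libraries alone differed by 1.04.

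The genes with values most like those of Ctsl and Cstb, the members with the largest log2FC over the 8 libraries, were sought where the mean log2 value was 5 or more. For Ctsl these were Emb (root mean square difference of the centred values 0.279), Emilin2 (0.317) and Pi16 (0.33). Like Ctsl, all 3 were highest in T2DM Ly6C-high MCs, with 10.26, 9.79 and 7.83. For Cstb they were Dbi (0.076), Pira2 (0.142) and Dstn (0.16). Dbi followed Cstb down to the T1DM Ly6C-low library, where it had its lowest value of 4.72. Since genes were picked for likeness over these same libraries, such shared extremes are not separate evidence of a link.

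The wider lysosomal system was compared between the subsets over the 8 libraries. Of 18 membrane proteins and cofactors 8 were called higher and 0 lower, with a median log2FC of 0.95, where 5.37% of all genes were called higher and 6.76% lower. Npc2, which carries cholesterol out of lysosomes, rose by 2.36 (SE 0.0897), Grn (progranulin) by 1.92 and Psap, whose saposins help lipid hydrolases, by 1.86. Lamp1, a protein of the lysosomal membrane, rose by 1.78, and Atp6v0c, a subunit of the proton pump that acidifies lysosomes, by 1.63. All 5 had limma adjusted p-values under 0.01. Of 19 hydrolases 6 were called higher and 1 lower (median 0.62), among them lysozyme (Lyz2) by 2.60, Hexa by 1.68, Asah1 by 1.35 and Pla2g15 by 1.32, while the acid phosphatase Acp5 fell by 2.02.

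Other lysosomal peptidases, listed together with the thioesterase Ppt1, gave 2 called higher of 8 (median 0.70), Ggh (1.52) and Ppt1 itself (1.01). Of genes for transport to the lysosome, 3 of 12 were called higher and 2 lower (median 0.63). Sort1 and Scarb2, which bring enzymes to lysosomes, rose by 1.30 and 1.20, and the transcription factor Mitf by 2.25. Igf2r, the large mannose 6-phosphate receptor, fell by 3.01 and the adaptor Gga2 by 1.96. Tfeb, a main activator of lysosomal genes, had a log2FC of -0.09 (SE 0.27, limma adjusted p = 0.821), and Tfe3 had 0.97 (SE 0.129, limma adjusted p = 0.000541), under the fold limit.

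Of 5 other cathepsins analysed 0 were called higher and 2 lower, with a median of -0.53, where 6.76% of all genes were called lower. This median is the log2FC of Ctsk (SE 0.675), which had low values of -2.06 to 0.62 in all libraries. In CT MCs the median of the list was 0.05. Ctsw, which is known from NK cells and cytotoxic T cells, fell by 2.46 (SE 0.282, limma adjusted p = 0.000241) and Ctso by 1.45 (SE 0.103, limma adjusted p = 1.74e-05). Ctsw had 4.25 and 4.08 in the CT, 5.21 in the T1DM and 2.28 in the T2DM library of Ly6C-low MCs. The NK cell list was also lowest among Ly6C-low libraries in T2DM, with 7.83, and highest in T1DM, with 10.31, and its part was not tested.

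Inhibitors other than Cst3 and Cstb were mostly lower in Ly6C-high MCs. Of 7 serpins 5 were called lower and 1 higher (median -2.33). Serpinb6b fell by 3.60 (SE 0.304), Serpina3g fell by 3.43, Serpina3f fell by 3.40 and Serpinb9, which protects cells from granzyme B, fell by 2.33, while Serpinb8 rose by 2.01. Of 3 cystatins and stefins analysed 2 were called lower, Cst7 (log2FC -2.07) and Csta2 (-1.86), the latter with values of -2.19 to 0.35 in all libraries. NK cells are known to express Cst7 and Serpinb9, and the NK cell list summed to 5.32 to 7.31 in Ly6C-high and 7.83 to 10.31 in Ly6C-low MCs. Its part in these values was not tested.

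Proteins that cathepsins act on were counted too. Of 4 granule serine proteases, which cathepsin C activates, Gzma (log2FC -2.84) and Gzmb (-2.75) were called lower and Prtn3 (3.21) higher. Gzma is also one of the NK cell markers. Of 4 genes of the invariant chain and H2-DM, 2 were called lower, Cd74 with a log2FC of -2.09 (SE 0.347, limma adjusted p = 0.00191) and H2-DMb2 with -3.30 (SE 0.165, limma adjusted p = 2.97e-06). B cells are known to express both, and the B cell list, called lower in all 12 markers, summed to 8.29 to 9.41 in Ly6C-high and 12.40 to 12.64 in Ly6C-low MCs. Its part in the values of Cd74 and H2-DMb2 was not tested.

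In CT MCs alone, 7 of the membrane proteins and cofactors and 3 of the hydrolases were called higher and none lower, beside 2.1% of all genes called higher and 1.43% lower. Of the transport genes 2 were higher and 1 lower. Of the other peptidases 0 were called. Lower in CT MCs were 1 of the other cathepsins (Ctso), 1 of the serpins, 0 of the other cystatins, 2 of the granule proteases and 2 of the genes of the invariant chain and H2-DM. Over the 8 libraries the sign of each list's median was the same with quantile normalization, median centring and the same total. The membrane proteins and cofactors had 6 to 10 called higher in these settings, the hydrolases 4 to 7 and the transport genes 1 to 4.

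**Figure D4:**
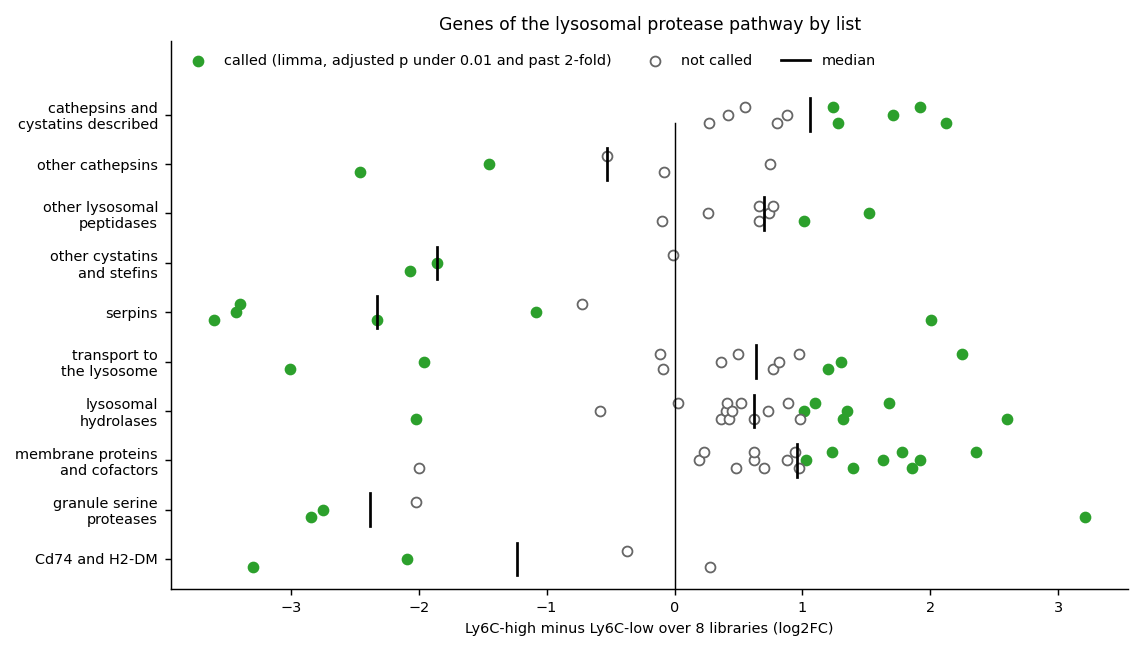
Ly6C-high minus Ly6C-low over the 8 libraries (log2FC on the horizontal axis) for the genes of each list, filled where called by limma, with a black bar at the list's median. The median is 1.06 for the cathepsins and cystatins described, 0.95 for membrane proteins and cofactors and -2.33 for serpins.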

How the data were processed

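RNA of sorted MCs from 5 pooled mice per group was sequenced in 8 libraries analysed here. Before depositing the log2 values, the authors ran Kallisto 0.45 and, in R 3.6.1, tximport 1.12.3, which gave gene counts and TPM. The labels name mm10, and the annotation, scaling and filter are not given in the sources used here. The deposited log2 values run from -4.05 to 15.64 and sum to between 838696 and 1090019 per library on the linear scale. The study states a read total per sample, but without counts the reads behind each gene's value are unknown.

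Tests used limma 3.58.1 (lmFit, eBayes with trend) in R 4.3.3 on all 16486 rows, with Benjamini-Hochberg adjustment. Called genes had an adjusted p under 0.01 and an absolute log2FC over 1, the study's criteria. Comparisons of a single diabetic library are given as differences without a test, and where an alternative left a lone library in a group, limma took its spread from the other libraries. The fits were tested on simulated data. Python 3.11.15 served for tables and figures (numpy 2.4.6, pandas 2.3.3, matplotlib 3.10.9). All 10 members are named, and of each other list the called genes, at most the 5 of largest log2FC, with a few of known role added. Members and lists were chosen with earlier results of these data known. Shared 31-base sequences come from GENCODE M21 transcripts, promoters from RefSeq (GRCm38.p6), and gene positions from GENCODE M21 (GRCm38). Alternatives were other scalings, a low-value filter (12527 genes kept), adding 1, no trend, other limits, the replicate number as a block and leaving out libraries.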

Additional observations from a re-analysis of the deposited data

Results flagged for a closer look

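Ctsl and Ctss in Ly6C-high MCs were singled out because the T1DM and the T2DM library lay on opposite sides of both CT libraries, each by more than these differed. For Ctsl the T2DM minus T1DM difference was 1.90 on the log2 scale, with T1DM below and T2DM above the CT libraries. For Ctss it was -0.56, with T1DM above and T2DM below. With 1 library of each model these differences were not tested. The CT libraries differed by only 0.03 for Ctsl and 0.01 for Ctss. The share of all genes with such opposite sides was not counted.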

How the results depend on the processing

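In CT MCs, where 3 genes were called, 5 were called at an adjusted p limit of 0.05, 5 without the fold limit and 5 with median centring, but 1 with quantile normalization, 0 without the eBayes trend and 0 when any CT library was left out. With the replicate number as a block 0 were called. Without the trend and with the block the log2FC of Ctsa, Ctsc and Ctss were 1.34, 1.49 and 1.26 as before, and the block and the left-out libraries leave fewer degrees of freedom. The difference between the CT replicates of Ly6C-high MCs was correlated over genes with that of Ly6C-low MCs. The correlation was 0.00892 for all genes and 0.0769 for those averaging 5 or more on the log2 scale. Spread within single libraries also lowers such a correlation, so it cannot decide whether the replicate numbers pair the CT libraries. Over the 8 libraries, where 5 were called, 9 passed without the fold limit, 3 with quantile normalization and 3 with the same linear total. With the diabetic libraries only, an alternative chosen after seeing the data like the same total, 0 were called, and the 5 genes had log2FC of 1.22 to 2.34. In every other setting of this test 5 were called, the block and each left-out library included. For T2DM against CT in Ly6C-high MCs, 2 genes past 2-fold became 1 with quantile normalization, median centring or the same total, and 1 to 2 without a CT library. In Ly6C-low MCs 0 became 0 to 1. For T2DM Ly6C-high minus Ly6C-low, 7 became 4 with quantile normalization and 4 with the same total. Of 1050 values of single genes under alternatives, 30 lost and 3 gained a call, and 79 of those without a test moved by more than 1 SD of the replicates. No called value changed sign, and 44 values that passed no limit did. The causes were not tested. Without counts, what depth limits cannot be given, and 1 library per diabetic model limits every comparison with T1DM or T2DM.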
